A study of Cavia porcellus with 12 samples.

Results

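The genes described here are those of the insulin-like growth factor (IGF) axis in guinea pig liver, measured by RNA sequencing in animals with nonalcoholic steatohepatitis (NASH) and in controls. A fixed list of 10 gene symbols was looked up in the deposited table of log2 expression values, which names its rows by human orthologue symbol. All 10 were found among the 11896 genes of that table: the ligands *IGF1* and *IGF2*, the growth hormone receptor *GHR*, the acid-labile subunit *IGFALS* and the binding proteins *IGFBP1*, *IGFBP2*, *IGFBP3*, *IGFBP4*, *IGFBP5* and *IGFBP7*. The animals were female Dunkin Hartley guinea pigs, 10 weeks old at delivery. Control animals (n = 6) had received chow for 25 weeks and had neither NASH nor fibrosis, and NASH animals (n = 6) had received a high-fat diet with sucrose and cholesterol for the same time. The NASH animals had been picked for bridging fibrosis. All livers were sampled in the left lateral lobe without perfusion, so residual blood may have been sequenced with the tissue.

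Growth hormone acts on the liver through GHR, a receptor on hepatocytes that signals through the kinase JAK2 and the transcription factor STAT5B. The liver answers by secreting IGF1, which carries much of the growth-promoting action of growth hormone in the body. Most IGF1 in plasma travels in a complex with IGFBP3 and the acid-labile subunit, which keeps it in the circulation. The other binding proteins hold smaller amounts of IGF, and some of them, IGFBP1 above all, follow insulin and the fed or fasted state. IGFBP7 is a related protein that binds IGFs weakly and lies in the matrix around vessels and stromal cells.

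The total count of an animal was between 16980274 and 33091460. Values are CPM, the counts of a gene scaled to a common library total with edgeR's TMM factors, and the 10 genes had between 388 and 39599 counts in each animal, so counting error was small beside the differences between animals. The hepatocyte markers fitted the label of the tissue. Mean *ALB* was 74883 CPM in the control livers and 30535 CPM in the NASH livers, although *TF* and *HNF4A* of the 8 listed markers were not rows of the table. The 6 markers found summed to between 96152 and 118410 CPM in controls and to between 39293 and 61956 CPM in NASH, and edgeR called 5 of them lower in NASH, against 26% of all genes. In bulk tissue, fewer hepatocytes and less RNA per hepatocyte cannot be told apart. The markers of stellate cells and fibroblasts (9 of 9 found, 7 higher and 1 lower) and of cholangiocytes (4 of 5 found, 4 higher) moved the other way, against 27.9% of all genes called higher and 26% called lower. Without TMM scaling, with library size alone, the median over all genes moved from 0.00 to 0.48 on the log2 scale, so that changes measured that way are read against 0.48.

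A gene was called when its Benjamini-Hochberg adjusted p-value from edgeR, over all genes of the table, was under 0.05. Of the 10 genes of the axis, 5 were lower in NASH (*IGF1*, *IGF2*, *IGFALS*, *GHR* and *IGFBP4*), 1 was higher (*IGFBP7*) and 4 were not called. Over all genes tested, 26% were lower, 27.9% were higher and 53.9% were called in either direction, so the share of 6 called genes in 10 was close to the background. The CPM of the groups did not overlap in 4 of the 10 genes, against 33.7% of all genes (15.3% with NASH lower and 18.4% with NASH higher). The 10 genes had a median of −0.87 on the log2 scale, and all genes tested one of 0.00. The genes that fell and rose are plotted animal by animal, and the size of each change is plotted with its interval.

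**Figure D1:**
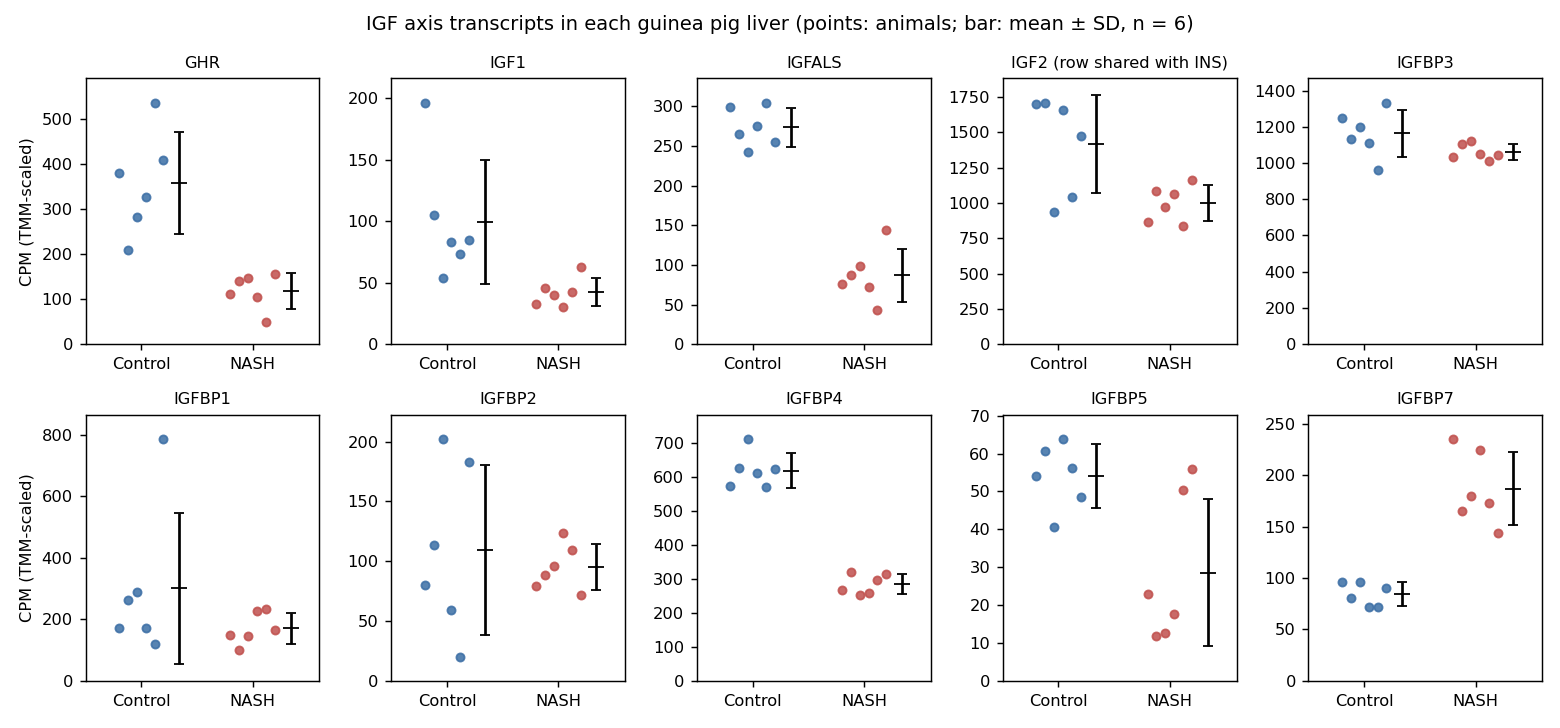
CPM of each of the 10 genes (vertical axes, from 0) in the 6 control and the 6 NASH livers; points are animals, and the bar beside them is the mean ± SD. *GHR*, *IGFALS* and *IGFBP4* lay lower in all 6 NASH animals than in any control, *IGFBP7* lay higher, and the groups overlapped in the other 6 genes.

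The receptor that receives the growth hormone signal fell about as much as the subunit that stabilises circulating IGF1. *GHR* was at 209 CPM in the lowest control, 354 CPM at the median and 536 CPM in the highest, and at 49.2, 126 and 155 CPM in NASH. Every NASH animal lay below every control. The fall was 3.02-fold, or −1.59 ± 0.28 (SE) on the log2 scale (edgeR adjusted p = 0.000374). NASH animal 41 had the lowest level, and the NASH animals spanned a 3.15-fold range.

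*IGF1*, the main endocrine ligand, was at 53.7 CPM in the lowest control, 83.8 CPM at the median and 196 CPM in the highest, and at 30.3, 41.1 and 62.6 CPM in NASH. All NASH animals but number 65 lay below the lowest control, so the groups overlapped by 1 animal. *IGF1* fell 2.35-fold, or −1.23 ± 0.28 (SE) on the log2 scale (edgeR adjusted p = 0.00273). Control 5 stood well above the other controls, and without it the log2 fold change was −0.92 (adjusted p = 0.00243 from edgeR).

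*IGFALS*, which encodes the acid-labile subunit, was at 242 CPM in the lowest control, 270 CPM at the median and 305 CPM in the highest, and at 42.6, 81.4 and 145 CPM in NASH. The groups did not overlap. Its log2 fold change of −1.66 ± 0.22 (SE, edgeR adjusted p = 4.98e-05) was the lowest of the 10 genes. The controls were close together, with a coefficient of variation of 8.98%, whereas that of the NASH animals was 39.1%. As with *GHR*, NASH animal 41 was the lowest. For comparison, the hepatocyte markers had a median of −0.87 on the log2 scale. Of these markers *TTR*, the plasma carrier of thyroid hormone and retinol-binding protein, fell most, by 2.20 on the log2 scale (SE 0.17, adjusted p = 6.29e-07 from edgeR). The other markers found ran from −1.29 (*ALB*) to −0.52 (*FGB*), smaller falls than those of *GHR* and *IGFALS*, and *APOA1* was not called. *IGF1*, at −1.23, lay within that range. How far the fall of these hepatocyte transcripts accounts for that of *GHR*, *IGF1* and *IGFALS* was not tested. In the RefSeq annotation of assembly mCavPor4.1, which is not the genome of the files, *IGFALS* overlaps the genes *HAGH*, *FAHD1* and *MEIOB*, and whether the counting used strand is not given in the sources used here.

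The partner of IGFALS and IGF1 in the circulating complex was not called. *IGFBP3*, the main IGF carrier in plasma, was at 959 CPM in the lowest control, 1166.5 CPM at the median and 1333 CPM in the highest, and at 1010.0, 1049 and 1119 CPM in NASH. The NASH values lay inside the range of the controls. The log2 fold change was −0.13 (SE 0.08, adjusted p = 0.19 from edgeR), with a 95% confidence interval from −0.31 to 0.04. With library size alone it was 0.34 (adjusted p = 0.00267 from edgeR), against a median of 0.48 over all genes. Relative to the median of all genes, *IGFBP3* was at −0.135 with either scaling, so its sign changed with the common shift and not against other genes. A common shift gives this agreement by construction, so it is no separate test.

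**Figure D2:**
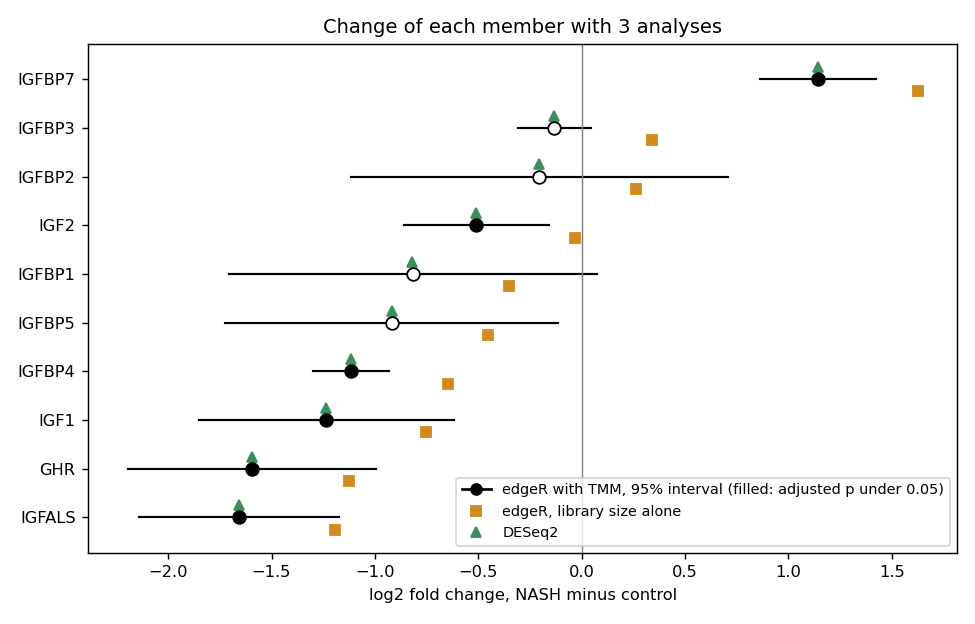
Log2 fold change of each gene, NASH minus control (horizontal axis), with circles and 95% confidence intervals from edgeR with TMM factors (filled where the adjusted p-value was under 0.05), squares from edgeR with library size alone and triangles from DESeq2. *IGFALS* at −1.66 and *GHR* at −1.59 lie lowest, *IGFBP7* at 1.14 is the highest, and the squares sit to the right of the circles in all 10 genes.

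*IGF2*, the second IGF ligand, is known in humans to be made by the adult liver as well as by the fetus. In the deposited values *IGF2* and *INS* are identical, because both symbols stand on the same count row. *INS* encodes insulin, a hormone of pancreatic beta cells, and lies next to *IGF2* in the RefSeq annotation. The values cannot be divided between the 2 genes. None of the 7 listed pancreas markers (*GCG*, *SST*, *PDX1*, *PRSS1*, *CPA1*, *CTRB1* and *CELA3A*) was a row of the table. The table holds only genes with a human orthologue symbol and at least 200 counts in total. The hepatocyte markers *TF* and *HNF4A* are missing from it too, so absence from it does not show absence of a transcript. A lncRNA overlaps *IGF2* in the same annotation.

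The shared row was at 933 CPM in the lowest control, 1565 CPM at the median and 1709.8 CPM in the highest, and at 836, 1018 and 1161 CPM in NASH. Controls 31 and 45 lay at 933 and 1043 CPM, within the range of the NASH animals, and the other 4 controls lay above all NASH animals. The log2 fold change was −0.51 (SE 0.16, adjusted p = 0.0172 from edgeR), a fall of 29.7%. With library size alone it was −0.03 (adjusted p = 0.854 from edgeR) against a median of 0.48 over all genes. Relative to that median the row was at −0.51, as with TMM factors. A shift common to all genes gives such agreement by construction. It is therefore no second test of the row, whose call was lost with library size alone. The row took between 0.0817% and 0.143% of all counts in controls and between 0.0991% and 0.130% in NASH.

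Among the smaller binding proteins, *IGFBP4* gave the most uniform change. IGFBP4 generally restrains IGF action and is cleaved by the protease PAPPA, which was not a row of the table. *IGFBP4* was at 570 CPM in the lowest control, 617 CPM at the median and 711 CPM in the highest, and at 252, 283 and 321 CPM in NASH, without overlap. It fell 2.17-fold, or −1.12 ± 0.09 (SE) on the log2 scale (edgeR adjusted p = 5.05e-07). The spread was small in both groups, with coefficients of variation of 8.24% in controls and 10.4% in NASH.

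*IGFBP5*, which binds to extracellular matrix and is cleaved by HTRA1, split the NASH animals. It was at 40.7 CPM in the lowest control, 55.2 CPM at the median and 63.8 CPM in the highest, and at 11.9, 20.3 and 55.8 CPM in NASH. In NASH animals 2, 9, 11 and 20 it lay between 11.9 and 23.0 CPM, below every control, whereas animals 41 and 65 were at 50.3 and 55.8 CPM, within the controls. The log2 fold change was −0.92 (SE 0.37, adjusted p = 0.0526 from edgeR) and did not pass the threshold. It passed with DESeq2 (−0.92, adjusted p = 0.0208 from DESeq2), and with edgeR when animal 41 (−1.16, adjusted p = 0.0201 from edgeR) or animal 65 (−1.23, adjusted p = 0.0101 from edgeR) was left out.

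*IGFBP1* and *IGFBP2* are the binding proteins that vary most with feeding and insulin, and here they varied most between controls. *IGFBP1* was at 119 CPM in the lowest control, 219 CPM at the median and 786 CPM in the highest, and at 101, 157 and 234 CPM in NASH. Its log2 fold change of −0.82 ± 0.41 (SE, edgeR adjusted p = 0.112) had a 95% confidence interval from −1.71 to 0.07. Control 56 alone held the highest value, and without it the log2 fold change was −0.25 (adjusted p = 0.439 from edgeR). A lncRNA overlaps *IGFBP1* in the RefSeq annotation, and the same holds for *IGFBP2* and *IGFBP5*.

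*IGFBP2* was at 19.7 CPM in the lowest control, 96.6 CPM at the median and 202 CPM in the highest, a 10.3-fold range. In NASH it was at 71.7, 92.5 and 123 CPM, a 1.72-fold range, inside that of the controls. The log2 fold change was −0.20 (SE 0.42, adjusted p = 0.705 from edgeR), with an interval from −1.12 to 0.71, and its sign changed when control 31 (0.064) or control 56 (0.0024) was left out. The SD of log2 CPM was 1.24 in controls and 0.29 in NASH for *IGFBP2*, and 0.95 and 0.45 for *IGFBP1*. For *IGFBP5* the order was the opposite, with 0.24 in controls and 0.96 in NASH. The differences between these spreads were not tested. *IGFBP1* lies next to *IGFBP3*, and *IGFBP2* next to *IGFBP5*, in the RefSeq annotation.

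*IGFBP7* was the gene of the axis that rose. It was at 71.4 CPM in the lowest control, 85.8 CPM at the median and 96.5 CPM in the highest, and at 144, 176 and 235 CPM in NASH. Every NASH animal lay above every control. The rise was 2.21-fold, or 1.14 ± 0.13 (SE) on the log2 scale (edgeR adjusted p = 1.19e-05). Markers of stromal and duct cells moved with it. The stellate cell and fibroblast markers summed to between 698 and 840 CPM in controls and to between 1480 and 2948 CPM in NASH, and had a median of 1.201 on the log2 scale, while *LRAT*, the retinol-storage enzyme of quiescent stellate cells, was lower (−0.57, adjusted p = 0.00082 from edgeR). The cholangiocyte markers summed to between 63.0 and 93.5 CPM in controls and to between 264 and 482 CPM in NASH. The endothelial markers summed to between 460 and 596 CPM in controls and to between 503 and 737 CPM in NASH, with 3 of 6 higher and 1 lower, against 27.9% and 26% of all genes. The erythroid markers (3 of 4 found, all 3 higher, against 27.9% of all genes) summed to between 57.0 and 171 CPM in controls and to between 426 and 4524 CPM in NASH. Of the macrophage markers, 5 of 6 were found, with 1 higher, 1 lower and 3 not called, against 27.9% and 26% of all genes. *CD68* was higher (0.69, edgeR adjusted p = 9.33e-06) and the scavenger receptor *MARCO* lower (−1.27, edgeR adjusted p = 0.00364). *CSF1R*, *C1QA* and *C1QB* were not called. The list summed to between 286 and 509 CPM in controls and to between 442 and 623 CPM in NASH. *IGFBP7* overlaps *POLR2B* and a lncRNA in the RefSeq annotation. The part of these cells in the rise of *IGFBP7* was not tested.

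The balance between the transcripts of ligand and binding proteins was then followed within each animal, as the log2 ratio of the *IGF1* count to that of each binding protein. Protein levels and IGF binding were not measured. Such a ratio does not depend on how libraries are scaled, but its absolute value depends on transcript length and is compared only between groups. The ratio to *IGFBP7* fell most, from 0.12 ± 0.61 (SD, n = 6) in controls to −2.17 ± 0.64 (SD, n = 6) in NASH, a difference of −2.28, without overlap. That it fell most follows from the changes given above, where *IGF1* was lower and *IGFBP7* alone was higher. The ratio to *IGFBP3* fell from −3.67 ± 0.60 to −4.69 ± 0.37 (SD, n = 6 each), or 2.04-fold, and 5 of 6 NASH animals lay below the lowest control. The ratio to *IGFBP4* hardly moved, from −2.76 ± 0.71 to −2.79 ± 0.28 (SD, n = 6 each), and both transcripts were lower in NASH. The ratio to *IGFBP5* was 0.77 ± 0.57 in controls and 0.80 ± 0.85 in NASH (SD, n = 6 each). The ratios to *IGFBP1* and *IGFBP2* differed by −0.58 and −1.28, with SDs of 1.22 and 1.44 in controls, and overlapped. The difference for *IGFBP1* was −0.26 without control 5 and −0.94 without control 56. The differences for *IGFBP4* and *IGFBP5* took either sign when single animals were left out, from −0.23 to 0.21 and from −0.20 to 0.25.

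**Figure D3:**
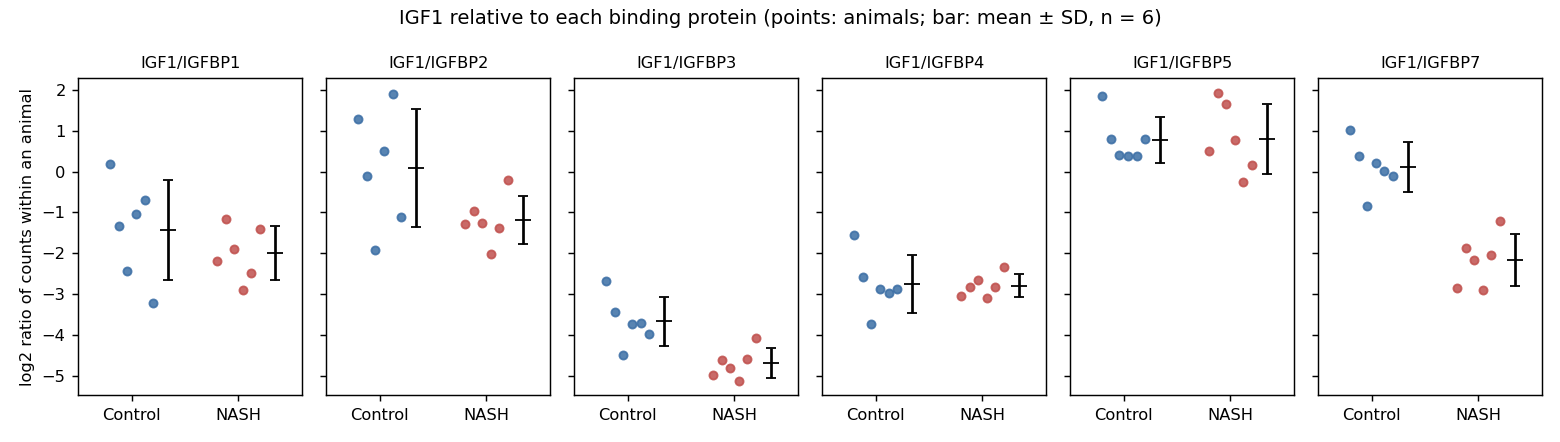
Log2 ratio of the *IGF1* count to the count of each binding protein within an animal (vertical axis, shared) in controls and NASH; points are animals, and the bar is the mean ± SD. The groups separate for *IGFBP7* (means of 0.12 and −2.17) and overlap for the other 5 binding proteins, in the case of *IGFBP3* through NASH animal 65.

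The rest of the pathway was described with 5 lists of 40 genes in all, of which 26 were rows of the table. Of these, 14 were higher, 3 lower and 9 not called, against 27.9% and 26% of all genes, with a median of 0.34 on the log2 scale. The number of lower genes was 5 with DESeq2 and without control 5, control 31 or NASH animal 2, and 2 when every row with at least 1 count was tested. With library size alone, 20 were higher and 2 lower, against 63.9% and 7.66% of all genes under that scaling. Downstream of the growth hormone receptor, 8 of 9 listed genes were found, 2 higher and 1 lower, no larger a share in either direction than the 27.9% and 26% of all genes. *SOCS2*, a feedback inhibitor induced through STAT5, was at 8.22 CPM in the lowest control, 11.2 CPM at the median and 13.7 CPM in the highest, and at 2.26, 5.18 and 6.87 CPM in NASH. It lay lower in every NASH animal, with a difference of −1.13 ± 0.21 (SE) on the log2 scale (edgeR adjusted p = 0.000685). *CISH*, another STAT5-induced inhibitor of the same family, was at 6.43 CPM in the lowest control, 9.04 CPM at the median and 17.4 CPM in the highest, and at 9.79, 17.4 and 52.4 CPM in NASH. The groups overlapped, with 3 of 6 NASH animals above the highest control, and the difference was 1.27 ± 0.39 (SE) on the log2 scale (edgeR adjusted p = 0.0142). *JAK2* was higher by 0.33 (adjusted p = 0.00321 from edgeR). *STAT5A* and *STAT5B* share a count row, whose log2 fold change was −0.26 (adjusted p = 0.0589 from edgeR).

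Of the receptors and adaptors, 6 of 10 listed genes were found, 3 higher and 2 lower, against 27.9% and 26% of all genes. *IGF1R*, the receptor through which IGF1 acts, was at 0 in the lowest control and at 1.40 CPM in the highest, and between 4.03 and 5.02 CPM in NASH. The log2 fold change was 2.39 (SE 0.41, adjusted p = 0.000347 from edgeR), without overlap. *IGF2R*, which takes up IGF2 for degradation, had means of 77.7 ± 29.6 CPM in controls and 150 ± 26.6 CPM in NASH (SD, n = 6 in each), a rise of 0.95 ± 0.22 (SE) on the log2 scale (edgeR adjusted p = 0.00307). The insulin receptor *INSR* had means of 250 ± 56.6 CPM in controls and 135 ± 26.3 CPM in NASH (SD, n = 6 in each), a change of −0.89 ± 0.17 (SE) on the log2 scale (edgeR adjusted p = 0.000582), without overlap. The adaptor *IRS1* was lower by a smaller amount (−0.33, adjusted p = 0.0125 from edgeR), and *GRB10*, which damps signalling from both receptors, was higher (0.36, adjusted p = 0.0162 from edgeR).

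**Figure D4:**
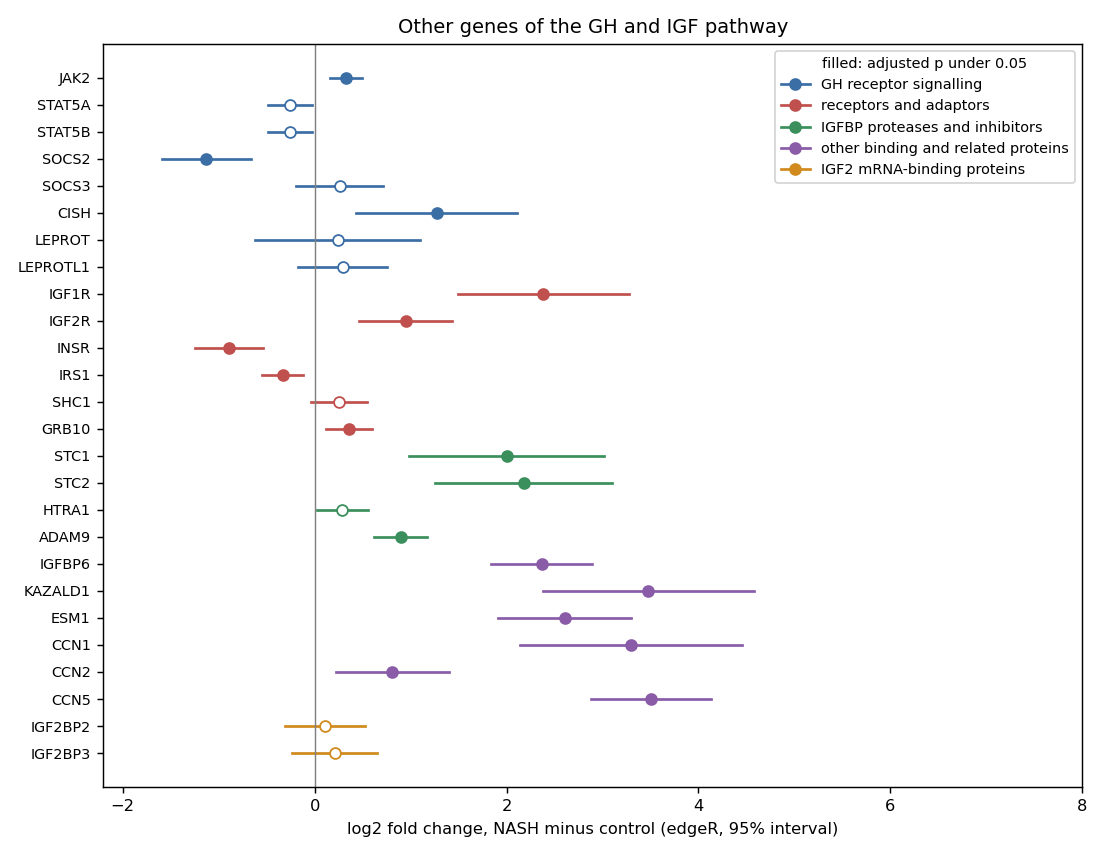
Log2 fold change, NASH minus control (horizontal axis), of the 26 genes found of the 5 pathway lists, with the 95% confidence interval from edgeR; colours mark the lists, and filled circles have an adjusted p-value under 0.05. All 6 genes of the other binding and related proteins lie above 0, while *SOCS2*, *INSR* and *IRS1* are the filled circles below 0.

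Proteases that release IGF from its binding proteins, and their inhibitors, were represented by 4 of 8 listed genes, 3 of them higher, against 27.9% of all genes. *STC1* and *STC2*, the stanniocalcins that inhibit the PAPPA proteases, both rose. *STC1* was at 1.26 CPM in the lowest control, 4.03 CPM at the median and 16.1 CPM in the highest, and at 15.4, 20.4 and 35.4 CPM in NASH (edgeR adjusted p = 0.00301). The highest control stood apart from the control median, and the groups overlapped. *STC2* was higher by 2.18 ± 0.42 (SE) on the log2 scale (edgeR adjusted p = 0.000823), from low counts that reached 0 in the lowest control. *ADAM9* rose by 0.90 (adjusted p = 7.01e-05 from edgeR), and *HTRA1* had a value of 0.29 (adjusted p = 0.0594 from edgeR). Of the other binding and related proteins, 6 of 10 were found and all 6 were higher, against 27.9% of all genes, with a median of 2.95. *IGFBP6*, which prefers IGF2, was at most at 2.80 CPM in controls and at least at 8.23 CPM in NASH, higher by 2.37 ± 0.24 (SE) on the log2 scale (edgeR adjusted p = 5.04e-06). The values of *CCN5* (3.50, SE 0.29), *KAZALD1* (3.48, SE 0.51) and *CCN1*, a matricellular protein (3.30, SE 0.53), were the highest of the list and lay within their errors of each other. *KAZALD1* was at 0 in the lowest control, and *CCN1* was at 15.6 CPM in the highest control against a control median of 2.43 CPM. *ESM1*, a proteoglycan of activated endothelium, had a value of 2.61 and *CCN2*, a profibrotic matricellular protein, one of 0.81, and both passed the threshold. Neither *IGF2BP2* (0.11) nor *IGF2BP3* (0.21), which bind *IGF2* mRNA, was called.

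Members were also compared with each other within each group, on the deposited rlog values. Over the 45 pairs in 2 groups, 90 relations were computed with exact permutation tests over 720 pairings, with 6 unadjusted p-values under 0.05 for Pearson's r and 8 for Spearman's rho. No adjusted p-value was under 0.05, the smallest being 0.125 for r and 0.25 for rho. With 6 animals the smallest exact permutation p reached was 0.00139 for r and 0.00278 for rho, so that a single relation among 90 could not have passed the adjustment. The relations given next were picked for the smallest p-values of r, with *IGFBP1* and *IGFBP2* added, and are a description only. Values of r without 2 animals rest on the few that remain and are no separate support. In NASH, *GHR* and *IGFALS* ranked the 6 animals in the same order (Pearson's r = 0.91, exact permutation p = 0.00139, adjusted 0.125; Spearman's rho = 1, exact permutation p = 0.00278, adjusted 0.25), and r was 0.97 without the 2 animals farthest from the median of *IGFALS*. In controls the same pair had r = 0.59 (exact permutation p = 0.215), and r = −0.059 without 2 animals chosen in the same way. *IGF1* and *IGFBP7* ran in opposite directions in NASH (r = −0.96, exact permutation p = 0.00417, adjusted 0.125; rho = −0.94, exact permutation p = 0.0167, adjusted 0.3), and r was −0.99 without the 2 animals farthest from the median of *IGF1*. In controls r was 0.27 (exact permutation p = 0.643). *IGFALS* and *IGFBP4* ran in opposite directions in controls (r = −0.95, exact permutation p = 0.00278, adjusted 0.125; rho = −0.94, exact permutation p = 0.0167, adjusted 0.3), and r was −0.95 without the 2 animals farthest from the median of *IGFALS*. In NASH the same pair had r = 0.17 (exact permutation p = 0.74). *IGFBP1* and *IGFBP2*, the variable pair, had r = 0.80 in controls (exact permutation p = 0.0514, adjusted 0.514; rho = 0.94, exact permutation p = 0.0167, adjusted 0.3) and r = 0.60 in NASH (exact permutation p = 0.192).

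**Figure D5:**
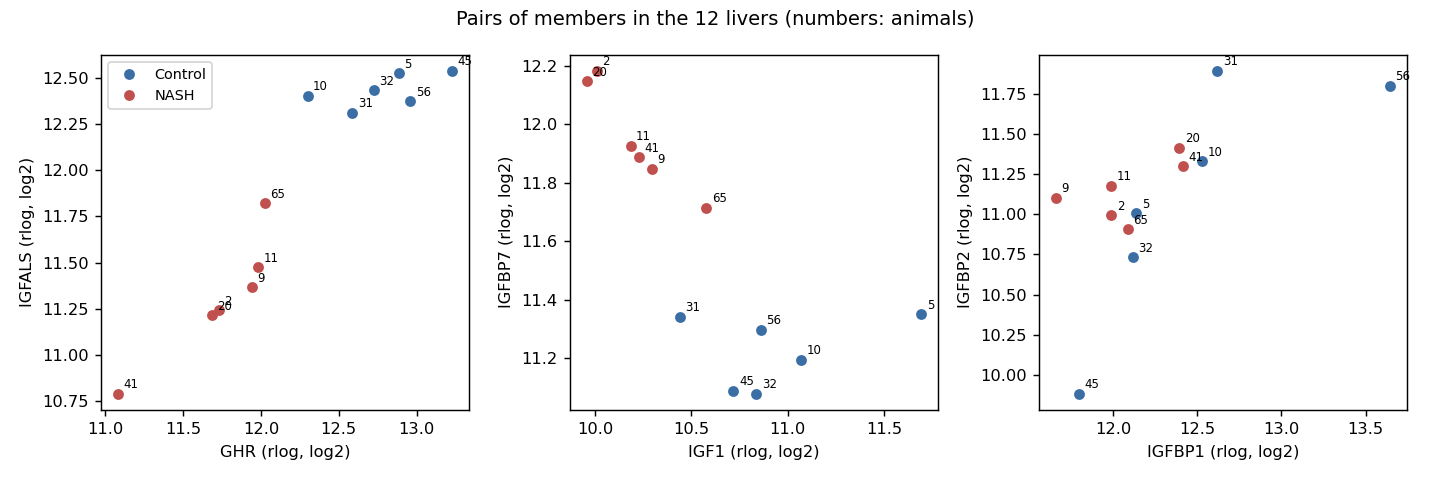
Deposited rlog values (log2 scale, both axes) of *GHR* and *IGFALS*, *IGF1* and *IGFBP7*, and *IGFBP1* and *IGFBP2* in the 12 livers, with animal numbers; blue points are controls and red points NASH. Among the red points *IGFALS* climbs with *GHR* (r = 0.91) and *IGFBP7* drops with *IGF1* (r = −0.96), and the *IGFBP1* and *IGFBP2* values of controls are spread more widely than those of NASH. Neither relation passed the adjustment over all pairs.

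Finally, the genes whose rlog values over the 12 animals were most like those of each member were looked up, as a description in which the difference between the groups enters. *IGFBP7* was most like *KRT7*, a cholangiocyte keratin that is itself on the marker list (Pearson's r = 0.99 over 12 animals, and 0.93 for deviations from the group means). *IGFALS* was most like *PPP2R5A* (0.98, and 0.85 for deviations) and *FTCD*, an enzyme of histidine breakdown in hepatocytes (0.98 and 0.83). *GHR* was most like *GLYCTK*, glycerate kinase (0.97 and 0.90). *IGFBP3* was most like *NKTR* (0.94 and 0.97), and *IGF1* most like the mitochondrial gene written as *MT.ND2* (0.95 and 0.94). *IGF2* was most like *IL1R1* (0.92 and 0.87), *IGFBP1* most like *SLC38A6* (0.89 and 0.88), *IGFBP2* most like *ZNF740* (0.86 and 0.91) and *IGFBP5* most like *MBTD1* (0.94 and 0.89). The second gene in order was *C1GALT1.1* for *IGF1*, *TRMT11* for *IGF2*, *PHLPP1* for *GHR*, *RPL35* for *IGFBP1*, *FAM120C* for *IGFBP2*, *EIF4ENIF1* for *IGFBP3*, *QPCTL* for *IGFBP5* and *STK32C* for *IGFBP7*, with r between 0.83 and 0.99. *IGFBP4* was most like a row that carries 2 numbered CYP2D symbols (0.995 and 0.89). The points of each comparison share library and group, and shared function was not tested.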

How the data were processed

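Liver RNA of 6 control and 6 NASH guinea pigs was analysed. The authors deposited raw counts per locus (Trimmomatic 0.38.0, HISAT2 2.1.0 and StringTie 1.3.6 per the labels, Cavpor3.0 genome, multimapped reads ignored) and log2 values from the rlog transformation of DESeq2 for genes with a human orthologue symbol and at least 200 counts in total. The count table carries no symbols, so rlog was recomputed with DESeq2 1.42.0 until the 11896 symbols fell on 11031 of the 39061 count rows, with a largest difference of 8.4e-07 from the deposited values.

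Counts were tested with edgeR 4.0.16 in R 4.3.3 (TMM, robust quasi-likelihood test, no covariate, Benjamini-Hochberg over 11896 symbols, threshold 0.05). The SE is the log2 fold change over the root of F, and intervals are 95%. Libraries of a group differed by at least 41.9 times counting variance, so none was present again. Animals were labelled individually, and the labels give no batch. Diets were assigned by randomisation in blocks of body weight, and the blocks are not in the labels. Members and lists were chosen with earlier results of these data known. All members, the 3 largest rises and falls of each pathway list and the 2 genes most like each member could be named; others were chosen after their values were seen. Alternatives were RLE and upper-quartile factors, library size alone, DESeq2, limma-voom, limma 3.58.1 on rlog values, 2 filters, each count row once, and each animal left out. Procedures were tested on simulated data. Figures were drawn with matplotlib 3.10.9. A marker list of T cells (4 of 4 found, 0 higher and 1 lower, against 27.9% and 26% of all genes) was looked up as well. RefSeq gene order came from assembly mCavPor4.1, and no sequence or coordinate was used.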

Additional observations from a re-analysis of the deposited data

Results flagged for a closer look

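In 32 groups of 6 values (the CPM of the 10 genes and the 6 ratios, in controls and in NASH), a single animal stood far from the others in 3. For normally distributed values chance alone gives about 1 in 20. The CPM were examined without log2 transformation, so that rate need not hold for them. *IGF1* was at 196 CPM in control 5 and at 105 CPM in the next control. *IGFBP1* was at 786 CPM in control 56 and at 290 CPM in the next control. The log2 ratio of *IGF1* to *IGFBP5* was 1.86 in control 5 and 0.80 in the next control. This ratio holds the same *IGF1* value of control 5, so the 3 are not independent and rest on 2 animals. Without control 5 the log2 fold change of *IGF1* was −0.92 and past the threshold of edgeR, and without control 56 that of *IGFBP1* was −0.25 and, as with it, not past the threshold.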

How the results depend on the processing

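*IGF1*, *IGFALS*, *GHR*, *IGFBP4* and *IGFBP7* kept their direction and their call under every alternative tried, and *IGF2* under all but library size alone. With library size alone, which shifted the median of all genes, 2 genes of the axis were higher in place of 1, *IGFBP3* reversed to 0.34, *IGFBP2* to 0.26 and *IGF2* lost its call at −0.03. Measured against the shifted median they were at −0.135, −0.22 and −0.51, so none of the 3 reversed against other genes. A shift common to all genes gives this by construction, so it is no separate test of these genes. *IGFBP2* was also above 0 with limma-voom (0.13), with limma on rlog values (0.042), and without control 31 (0.064) or control 56 (0.0024), and ran from −0.42 to 0.064 with an animal left out. *IGFBP5* passed the threshold with DESeq2, limma-voom (adjusted p = 0.0144 from limma) and limma on rlog values (adjusted p = 0.0141 from limma), which made 6 genes lower. With each animal left out in turn, between 5 and 6 genes of the axis were lower and 1 was higher. The pathway lists had 5 lower genes with DESeq2 in place of 3, and between 3 and 5 with an animal left out, 5 being reached without control 5, control 31 or NASH animal 2, and 2 over every row with at least 1 count. The difference in the ratio of *IGF1* to *IGFBP7* was −1.45 on rlog values, which shrink differences, and between −2.48 and −2.10 with an animal left out. The causes of the other changes were not tested. Over all genes, 3318 were higher and 3093 lower, against 7603 and 911 with library size alone, 5985 and 4828 over every row with at least 1 count and 5089 and 4734 with filterByExpr, where more rows were tested. No paired analysis was possible because each number marks 1 animal, no animal is in both groups, and the labels do not give the body-weight blocks used for randomisation.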
